A study of Homo sapiens with 2 samples.

Results

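The cytosolic ribosomal protein genes encode the protein part of the ribosome that translates nuclear mRNAs in the cytoplasm. They were chosen by gene symbol alone: symbols that start with RPL or RPS and go on with a number and at most an A or X, the stalk genes RPLP0, RPLP1 and RPLP2, and RPSA, with pseudogenes left out. The RefSeq table held 77 such symbols, and 75 of them had a probe named through its RefSeq accession, among 21743 genes named in all. Of the 75 genes, 45 encode proteins of the large subunit and 30 of the small subunit. RPL10 and RPSA had no matched probe and were not analysed here.

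The study compared MRC-5 cells, a diploid fibroblast line from human fetal lung, after transfection of periostin siRNA with the same line after control siRNA, to find genes whose expression depends on periostin, a matricellular protein that binds integrins. The periostin siRNA was given at 10 nM for 48 h, and the labels give no separate dose or time for the control array. Cy3-labelled cRNA made from equal masses of total RNA was hybridised to 1 single-colour Agilent array per condition, on the same slide. With 1 array per condition, no difference below has a replicate check and no test was run. Pairs of scaled signals are given with control siRNA first and periostin siRNA second, and a log2 ratio sets periostin siRNA over control siRNA.

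POSTN, the gene targeted by the siRNA, had scaled signals of 2638 and 280, a log2 ratio of -3.24 ± 0.20. The share of the 58717 non-control spots well above background was 58.0% and 58.9% in the same order, with 0 saturated spots on each array. All 9 fibroblast markers looked at were well above background on both arrays, with summed signals of 351936 and 316967. Of the markers of other cell types, 1 of 4 epithelial, 2 of 4 leukocyte and 2 of 3 endothelial genes were well above background on both arrays, with sums over all genes of the list of 42.0 and 148, 1558 and 2490, and 124 and 128. The epithelial gene above background was EPCAM, at 34.6 and 135, a log2 ratio of 1.97. CDH1, KRT5, KRT14 and PECAM1 were not well above background on either array, and CD3E was well above background on the periostin siRNA array alone. The part of other cells in the results below was not tested. In RNA from a whole culture, fewer cells of a type and less RNA per cell cannot be told apart.

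A ribosome holds a single copy of nearly every one of these proteins, with the stalk proteins P1 and P2 as the known exception, and cells make them in matched amounts. Their mRNAs are among the most abundant in growing cells. Most start with a 5′ terminal oligopyrimidine (TOP) motif, a C at the first transcribed base followed by a run of pyrimidines, through which LARP1 and the kinase complex mTORC1 control their translation and stability together with the mRNAs of several translation factors.

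The start of 8 members whose values are described below, and of RPL22L1, a paralog of RPL22, is shown to let this shared signal be read. Each line gives 10 bases before and 20 bases from the start of transcription on the gene's own strand, from RefSeq on GRCh38.p14, and capitals mark the C and the pyrimidines that follow it. These windows lie at chr17:8383174-8383203 (minus strand) for RPL26, chr3:40457329-40457358 (plus) for RPL14, chr11:8682782-8682811 (plus) for RPL27A, chr1:23691769-23691798 (plus) for RPL11, chr19:41860245-41860274 (plus) for RPS19, chr12:120201092-120201121 (minus) for RPLP0, chr9:19380217-19380246 (minus) for RPS6, chr1:6199576-6199605 (minus) for RPL22 and chr3:170870176-170870205 (minus) for RPL22L1.
RPL26: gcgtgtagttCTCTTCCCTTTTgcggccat
RPL14: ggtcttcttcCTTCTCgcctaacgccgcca
RPL27A: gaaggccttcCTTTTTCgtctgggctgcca
RPL11: cctggcccataaggCCCTCggccggaagct
RPS19: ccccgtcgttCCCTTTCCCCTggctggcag
RPLP0: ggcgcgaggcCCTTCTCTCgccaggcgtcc
RPS6: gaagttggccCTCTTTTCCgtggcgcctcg
RPL22: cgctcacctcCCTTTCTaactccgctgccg
RPL22L1: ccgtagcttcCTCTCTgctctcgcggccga

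In 8 of these 9 windows the motif begins at the annotated start, whereas in RPL11 it begins 4 bases downstream, at base 5. The promoter table held 62 of the 77 symbols. A C followed by at least 4 bases that are C or T, read on the gene strand at the annotated start, was present in 42 of the 62 (67.7%) and in 4.04% of all 27305 promoters. When the motif was allowed to begin up to 10 bases to either side, it was present in 55 of the 62 (88.7%) and in 33.3% of all promoters, and RPL6, RPL13, RPL15, RPL17, RPL27, RPS4X and RPS29 had none in that window. The table had no entry for RPL5.

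Most ribosomal protein genes had nearly the same signal on both arrays, with RPL5 and RPL26 as the clearest exceptions. RPL27A had the lowest ratio, but from a single dim probe. All 75 were well above background on both arrays, and their log2 ratios had a median of 0.01 and an SD of 0.15. The 25th and the 75th percentile lay at -0.05 and 0.08. Within 0.2 of 0 on the log2 scale were 69 of the 75 members (92.0%), and 31.8% of the 14957 genes well above background on both arrays. These shares were counted only with each array scaled on its 75th percentile, and scaling on the median shifted all ratios by -0.13. Past 1.5-fold, 0 members were higher and 1, RPL27A, was lower, whereas 16.1% of all genes were past 1.5-fold higher, 12.9% lower and 29.0% either way. Past 2-fold there were 0 members either way, and of all genes 6.87% were higher, 5.90% lower and 12.8% either way. Past 3-fold, the fold at which the study called genes, there were 0 members, and of all genes 2.70% were higher, 2.39% lower and 5.09% either way.

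**Figure D1:**
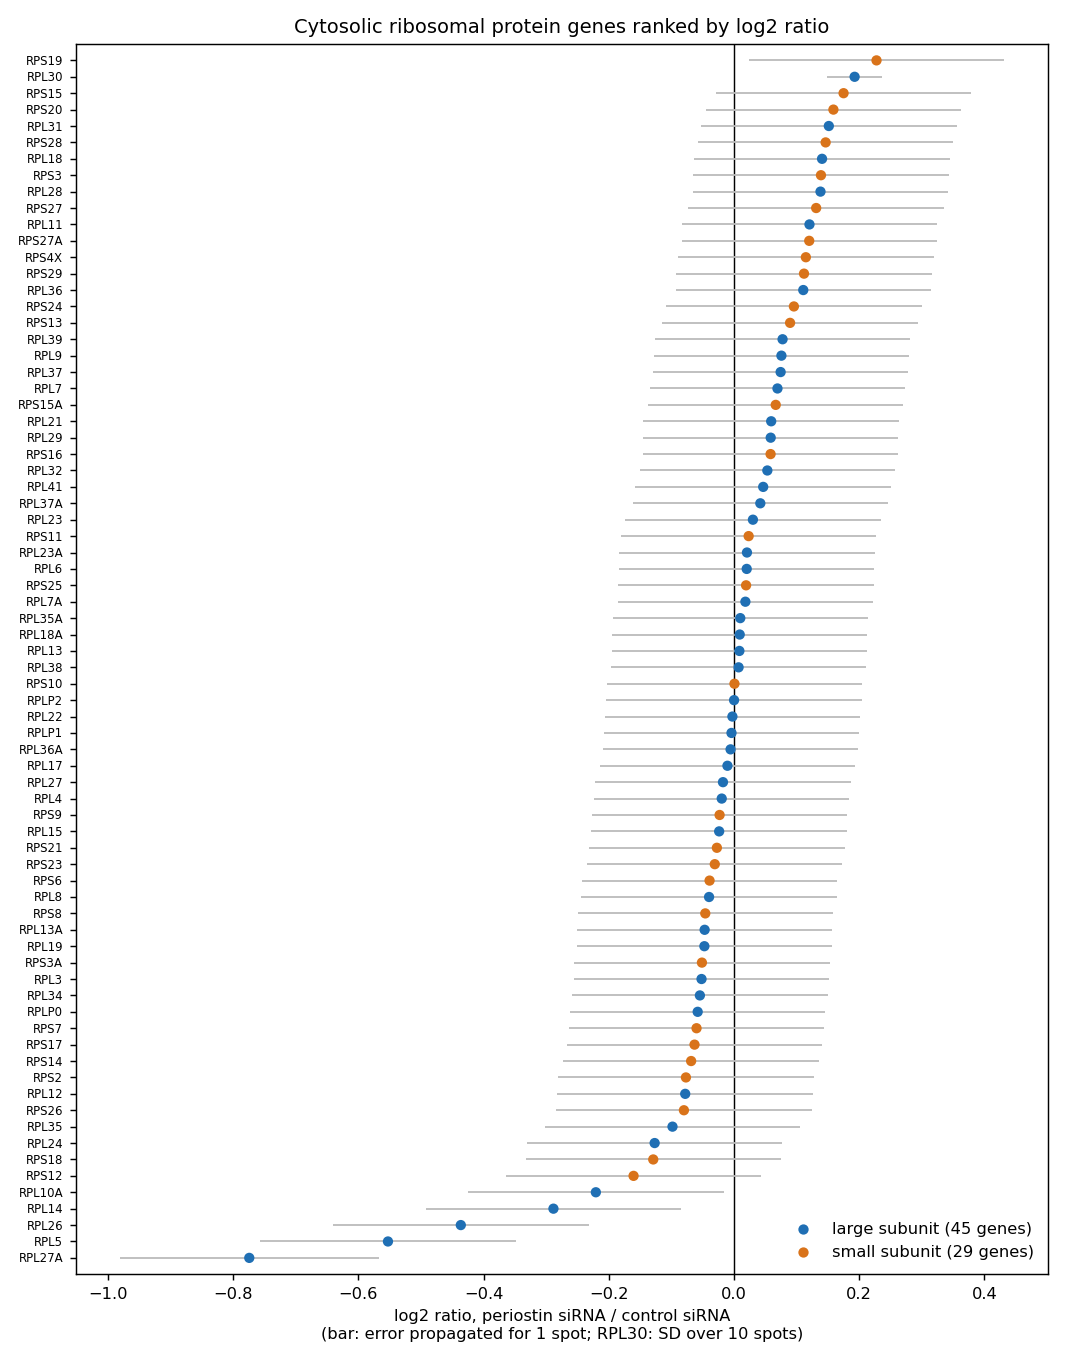
Log2 ratio, periostin siRNA over control siRNA (x axis), of 74 ribosomal protein genes, ranked, with large subunit genes in blue and small subunit genes in orange. Bars are the error that Feature Extraction propagates for 1 spot, or the SD over 10 spots for RPL30. Most points lie within 0.2 of 0, and RPL27A, RPL5 and RPL26 lie apart at the bottom.

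The error of a ratio from a single spot was about 0.20. It was a calculated value, close to 0.204 in all members printed once, and not a spread measured between spots. The pooled SD between repeated spots of a probe, which was measured, was 0.12. The difference between cultures is covered by neither. Among the brightest probes, which stand for the members, only that of RPL30 was printed 10 times. The error of RPL30 is the SD over these spots, 0.04. Of the 75 members, 68 had a ratio within 1 of their own error of 0. Since that error was nearly the same for all members printed once, this count nearly repeats the cut at 0.2 above. The share of all genes within 1 error was not counted. The 7 members beyond 1 error were RPL27A, RPL5, RPL26, RPL14 and RPL10A on the lower side and RPS19 and RPL30 on the higher side. Only RPL27A, RPL5, RPL26 and RPL30 were beyond 2 of their own errors, and RPL30 was so only by its smaller error. Both counts depended on the scaling. With each array scaled on its median instead, RPS19, at 0.10, was within 1 error. RPS12, RPS18 and RPL24, at -0.29, -0.26 and -0.26, were then beyond 1 error. RPL14, at -0.42, was then beyond 2 errors, and RPL30, at 0.06, was not.

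The members went in no common direction, with 40 above 0 and 35 below. Of all genes, 54.3% were above 0 and 45.7% below. The count depended on the scaling: with each array scaled on its 75th percentile 40 members were above 0, with the median in its place 10, and with quantile normalization 58. Against the median of all genes, 0.05, 26 members were above and 49 below, and with quantile normalization 53 were above and 22 below. The difference between the member median and the all-gene median was -0.04, and it ran from -0.05 to 0.05 over the 10 alternative settings, so that its sign was not fixed.

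The spread of the members was narrow beside that of all genes. The SD over all genes was 0.75, 4.89 times that of the members, and the interquartile range 0.68 against 0.12, a ratio of 5.47. Since the members are bright, they were also set beside other genes of like signal. Between the 5th and 95th percentile of member signal, 44726 to 194268, there were 157 other genes with an SD of 0.44, and the 67 members in that range had an SD of 0.13, a ratio of 3.34. Of these 157 genes, 46.5% lay within 0.2 of 0 and 14.6% were past 1.5-fold. Over the 10 alternative settings the ratio of the all-gene SD to the member SD ran from 3.85 to 4.90. Settings that only shift all ratios alike could not change this ratio.

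**Figure D2:**
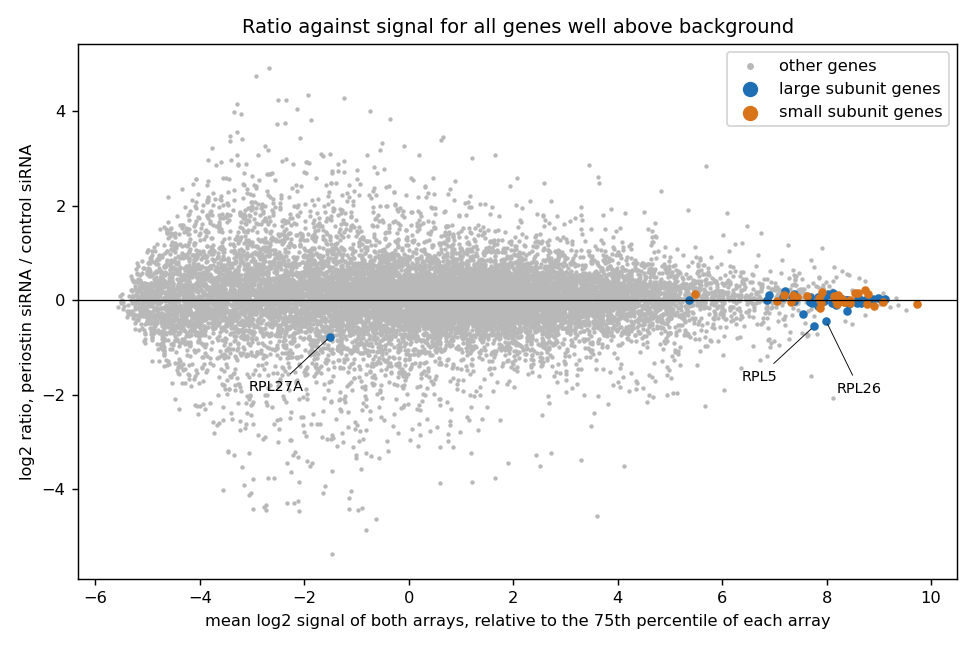
Log2 ratio (y axis) against the mean log2 signal of both arrays relative to the 75th percentile (x axis) for 14957 genes, with members in colour. The members form a flat band at the bright end, RPL27A lies alone at low signal, and RPL5 and RPL26 lie below the band.

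**Figure D3:**
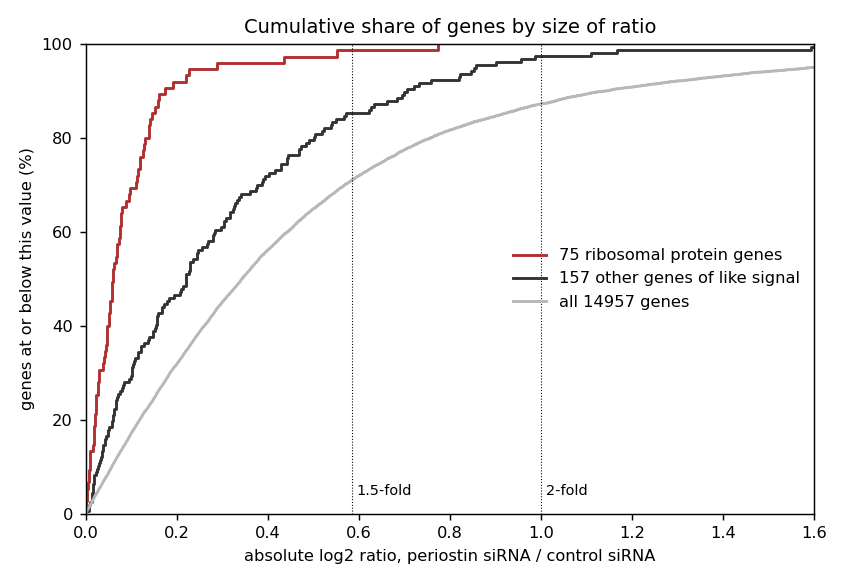
Cumulative percent of genes (y axis) up to each absolute log2 ratio (x axis, shown to 1.6) for the 75 members, 157 other genes of like signal and all 14957 genes. At 0.2 the curves stand at 92.0%, 46.5% and 31.8%.

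Large and small subunit genes had nearly the same median. The median log2 ratio was 0.01 in each, with 24 of 45 large subunit genes and 16 of 30 small subunit genes above 0. The large minus small difference of the medians was -0.0027, and it ran from -0.02 to 0.0001 over 12 alternatives. Those that only shift all ratios alike, such as scaling on the median, could not change it. The subunits differed in their low tail: the 5 lowest genes of the 75 were all of the large subunit, and the SD was 0.18 in the large and 0.10 in the small. Without RPL27A, RPL5 and RPL26 the SD of the large subunit genes was 0.09. Over all genes of each subunit the mean was -0.03 in the large and 0.03 in the small. The 75th percentile was also lower in the large subunit, at 0.06 against 0.11. Within 0.2 of 0 were 40 of 45 large and 29 of 30 small subunit genes, and the small subunit ran from -0.16 for RPS12 to 0.23 for RPS19.

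RPL27A, a large subunit protein, had the lowest ratio. Its scaled signals were 173 and 101, a log2 ratio of -0.77 ± 0.21. It was read by a single probe printed once, and it was the only dim one among the probes standing for the members, since the probes of the other 74 had signals of at least 15499 on both arrays. With the normexp background correction the ratio was -0.55, which is not past 1.5-fold. Among dim probes of other members, those of RPS26, at -0.87, and RPL28, at 0.78, lay as far from 0. Others lay nearer, at -0.60 in RPL32, 0.47 in RPS24, 0.38 in RPS3A, 0.23 in RPL37 and 0.20 in RPS20. The dim probes of RPL28, RPS24, RPS3A and RPS20 were named through another RefSeq transcript than the brightest. The brightest probes of RPS26 and RPL28 gave -0.08 and 0.14.

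RPL5 binds 5S rRNA together with RPL11, and both proteins also bind MDM2, the ubiquitin ligase of p53. The signals of RPL5 were 98809 and 67362, a log2 ratio of -0.55 ± 0.20. Its 3 other probes gave 83613 and 55529, 27092 and 16064, and 9657 and 5344. All 4 probes were lower with periostin siRNA, at -0.55, -0.59, -0.75 and -0.85 from the brightest to the dimmest. Averaged over the 4 probes the ratio was -0.69, which is past 1.5-fold. RPL11 had signals of 94239 and 102461, a log2 ratio of 0.12 ± 0.20. RPL11 was within 1 error of 0, and its side of 0 was not fixed, since scaling on the median shifted all genes by -0.13. The difference between the partners of the 5S particle does not depend on such a shift. RPL5 minus RPL11 was -0.67, with a propagated error of 0.29.

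RPL26 lies at the exit of the tunnel through which the new peptide leaves the ribosome, and it is also known to bind p53 mRNA. Its signals were 111450 and 82363, a log2 ratio of -0.44 ± 0.20. The other probes gave 75082 and 55583, and 71259 and 54981, with log2 ratios of -0.43 and -0.37. The 3 probes lay within 0.06 of each other.

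RPL14 is a large subunit protein with signals of 77554 and 63505, a log2 ratio of -0.29 ± 0.20 from its single probe. RPL10A, which lies at the L1 stalk where deacylated tRNA leaves, had signals of 136451 and 117106, a log2 ratio of -0.22 ± 0.20, and its second probe gave -0.25. RPS12, at 93939 and 84058, had a log2 ratio of -0.16. These were followed by RPS18 at -0.13, from 188795 and 172658, and RPL24 at -0.13, from 90178 and 82599. Each of the last 3 was within 1 error of 0.

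At the other end, RPS19, the small subunit protein in which Diamond-Blackfan anaemia mutations were first found, had signals of 148373 and 173750, a log2 ratio of 0.23 ± 0.20. Its second probe, at 107783 and 126315, gave 0.23 as well. RPL30, a large subunit protein, was the only member whose brightest probe was printed 10 times. Its signals were 51784 and 59188, a log2 ratio of 0.19 ± 0.04 (SD over 10 spots), and it was 0.19 without the spots that carried an outlier flag. This difference is smaller than the error of a single spot, and its value rests on the most spots.

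The other 6 of the 8 highest lay within 1 error of 0. RPS15 had signals of 85823 and 96901, a log2 ratio of 0.18. RPS20 had 139488 and 155731, a ratio of 0.16. RPL31, RPS28, RPL18 and RPS3 had log2 ratios of 0.15, 0.15, 0.14 and 0.14. With the normexp background correction RPL31 was at -0.01, and with quantile normalization RPS18 was at 0.00. The 59 members between the named ends ran from -0.10 for RPL35 to 0.14 for RPL28.

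The functional centres of the ribosome can be read from the members that form them. The GTPase stalk, which recruits elongation factors, had signals of 148398 and 142558 for RPLP0, 152724 and 152313 for RPLP1, and 126277 and 126296 for RPLP2. Their log2 ratios were -0.06, -0.00 and 0.00, and RPL12, at the base of the stalk, was at -0.08. A second RPLP0 probe printed 10 times gave -0.08 ± 0.04. RPL3 and RPL8, which reach towards the peptidyl transferase centre, were at -0.05 and -0.04.

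Of 8 members around the peptide exit tunnel, 3 were above 0 and 5 below, with a median of -0.01. RPL26 was the lowest of these, and RPL31 the highest at 0.15. RPL4 and RPL17, which reach into the tunnel, were at -0.02 and -0.01, RPL39 at 0.08, and RPL19, RPL23A and RPL35, at the tunnel exit, at -0.05, 0.02 and -0.10.

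In the small subunit, RPS2, RPS3 and RPS9 at the mRNA entry channel were at -0.08, 0.14 and -0.02. RPS14, RPS26 and RPS28 near the mRNA exit were at -0.07, -0.08 and 0.15. RPS15, RPS16, RPS18, RPS23 and RPS25, which lie in the head or near the tRNA sites, were at 0.18, 0.06, -0.13, -0.03 and 0.02. RPS6, the substrate of S6 kinase, had signals of 124818 and 121495, a log2 ratio of -0.04. Each of these small subunit genes lay within 0.2 of 0.

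Of 17 members mutated in Diamond-Blackfan anaemia, a red cell aplasia, 9 were above 0 and 8 below. Their median was 0.00 and their SD 0.20, with 14 of 17 within 0.2 of 0. RPL5, RPL26 and RPS19 were the 3 outside it.

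The log2 ratio could be read from more than 1 probe in 43 members. The probes of a gene spanned a median of 0.10, and in 31 of the 43 genes they spanned less than 0.2. In 14 genes the probes differed in sign, in 7 of them by more than 0.2. In 31 of 43 genes the dimmest probe had a larger absolute ratio than the brightest. All members have pseudogenes in RefSeq, with a median of 16 per gene, and whether a probe also reads such near-identical copies was not tested.

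The probes were furthest apart in RPS26, RPL32, RPL28 and RPS3A, each by more than 0.5. RPS26 had -0.08 and -0.06 from its bright probes and -0.87 from a probe with signals of 79.6 and 43.6. RPL32 had 0.05 from its brightest probe and -0.60 from a probe with signals of 757 and 499. RPL28 had 0.14 from its brightest probe, 0.32 from the next and 0.78 from a probe with signals of 133 and 228. In RPS3A 5 probes lay between -0.19 and -0.04 and the dimmest, with signals of 71.4 and 92.8, at 0.38. The RPL28 probes at 0.32 and 0.78 and the dimmest RPS3A probe were named through another RefSeq transcript than the brightest. Whether such probes read a different mRNA of the gene was not tested. The brightest probe of each of the 4 was within 0.2 of 0.

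Where signs differed by less than 0.5, the probes of RPL15 ran from -0.02 to 0.31, those of RPL17 from -0.02 to 0.30, those of RPL34 from -0.05 to 0.22 and those of RPS2 from -0.24 to 0.02. The 9 probes of RPL21, the most of any member, ran from -0.09 to 0.15. The probes of RPL6, RPL13A, RPL22, RPL23A, RPL29, RPL39 and RPS18 also straddled 0, within a span of at most 0.17. With all probes averaged, the SD over the members was 0.18 in place of 0.15.

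**Figure D4:**
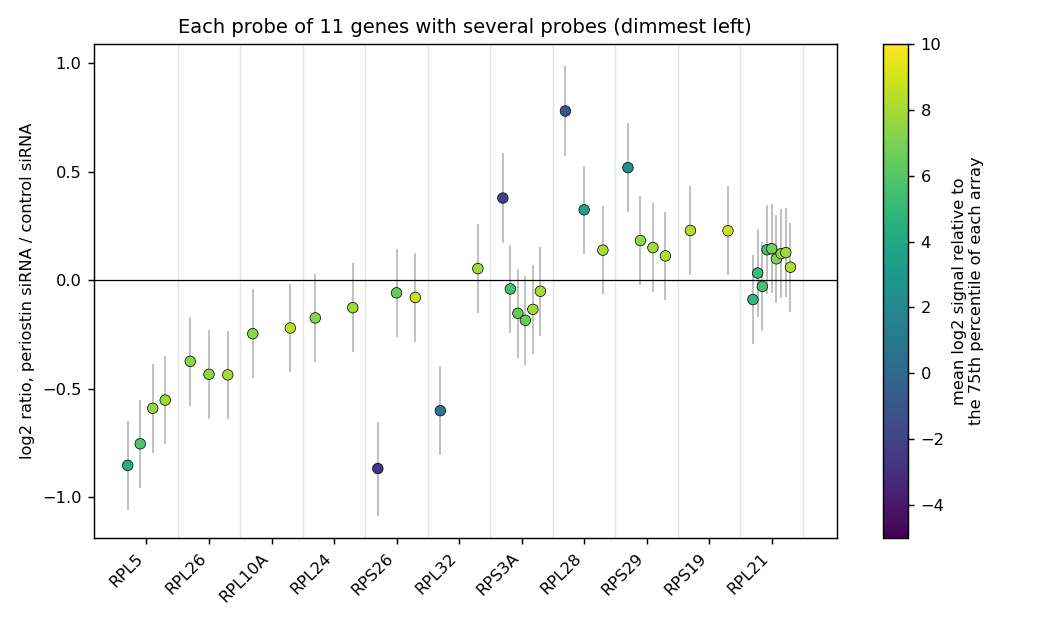
Log2 ratio (y axis) of every probe well above background for 11 members with several probes (x axis), dimmest probe on the left, coloured by mean log2 signal. Bars are the propagated error. All probes of RPL5 and RPL26 lie below 0, whereas in RPS26, RPL32 and RPL28 the dimmest probe lies apart from the brighter ones. The dimmest probe of RPL28, RPS3A and RPS29 was named through another RefSeq transcript than the brightest.

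The TOP motif was set against the ratios of the 60 members that had both. The 41 members with the motif at the annotated start had a median of 0.00 and an SD of 0.17, and the 19 without it a median of 0.01 and an SD of 0.10. RPL27A, RPL26 and RPL14, below 0, and RPS19, above 0, all hold the motif in the sequences shown. RPL10A, at -0.22, did not have it at the annotated start and was the lowest of the 19 without it. The lowest value of the members with the motif, -0.77, was that of the dim RPL27A probe, which adds to their SD.

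Small subunit proteins whose symbols fall outside the rule lay in the same range. FAU, the source of the protein eS30, had signals of 74865 and 76604, a log2 ratio of 0.03. RACK1, a scaffold protein, had 38482 and 36944, a log2 ratio of -0.06.

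Paralogs of the members varied more. RPL22L1 had signals of 41657 and 8897, a log2 ratio of -2.23 ± 0.20, whereas RPL22 had 15525 and 15499, a ratio of -0.00. RPL39L had 555 and 307, a ratio of -0.85, against 0.08 for RPL39. RPS27L, a target of p53, had 49696 and 68817, a ratio of 0.47, against 0.13 for RPS27. Of the 8 paralogs, 4 were above 0 and 4 below. RPL26L1 and RPL7L1 were at -0.31 and -0.22, and RPL36AL, RPL3L and RPL10L at 0.10, 0.04 and 0.01. Each paralog was read by 1 spot.

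Other genes of the translation machinery were set beside the members, each list by its count and its median, with the all-gene median at 0.05 and 29.0% of all genes past 1.5-fold. Of 15 other TOP mRNAs, mostly translation factors, 9 were above 0 and 6 below, and none was past 1.5-fold. Their median was 0.04 and their SD 0.25. EEF1A1 and EEF2, which drive elongation, were at 0.04 and 0.08, PABPC1, the poly(A)-binding protein, at 0.22, and NPM1, a nucleolar chaperone, at -0.49, from 85817 and 61116.

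Of 77 mitochondrial ribosomal protein genes, 22 were above 0 and 55 below, with a median of -0.17 and an SD of 0.30. Past 1.5-fold, 2 were higher and 3 lower. MRPS17 was the lowest at -1.12, from 3031 and 1395, and MRPS25 the highest at 0.63, from 158 and 244.

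Of 26 genes of ribosome biogenesis and RNA polymerase I, 2 were above 0 and 24 below, with a median of -0.47 and an SD of 0.42. Past 1.5-fold, 0 were higher and 9 lower. RRS1, needed for assembly of the large subunit, had signals of 1833 and 677, a log2 ratio of -1.44. LYAR was at -1.31, POLR1B, the second largest subunit of RNA polymerase I, at -1.03, NOP58, a core protein of box C/D particles, at -0.81, and FBL, the rRNA methyltransferase fibrillarin, at -0.72, from 19792 and 11979. The genes above 0 were TAF1C, at 0.57, and UBTF, at 0.23. Over the 10 alternative settings 23 or 24 of the 26 were below 0, and the median ran from -0.60 to -0.43. The members of the ribosome itself had 35 of 75 below 0, beside 45.7% of all genes. That count was not stable, since the members above 0 ran from 10 to 58 over the 10 settings. The member median ran from -0.12 to 0.07 over 12 alternatives.

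Of 16 genes of mTORC1, LARP1 and S6 kinase signalling, 9 were above 0 and 7 below, with a median of 0.04, and 3 were past 1.5-fold in each direction. DEPTOR, an inhibitor of mTOR, was at 1.18, from 46.5 and 106, and TSC1, which restrains mTORC1, at 1.04, from 1344 and 2767. EIF4EBP1, a repressor of cap-dependent translation, was at -1.02, from 5854 and 2886, and its relative EIF4EBP2 at 0.66 ± 0.03 (SD over 10 spots). AKT1S1, which also inhibits mTORC1, was at -0.75, from 1925 and 1141. LARP1, which binds TOP mRNAs, was at -0.42, and MYC at -0.60 ± 0.06 (SD over 10 spots). The medians of this list and of the other TOP mRNAs were below 0, at -0.09 each, with scaling on the median.

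**Figure D5:**
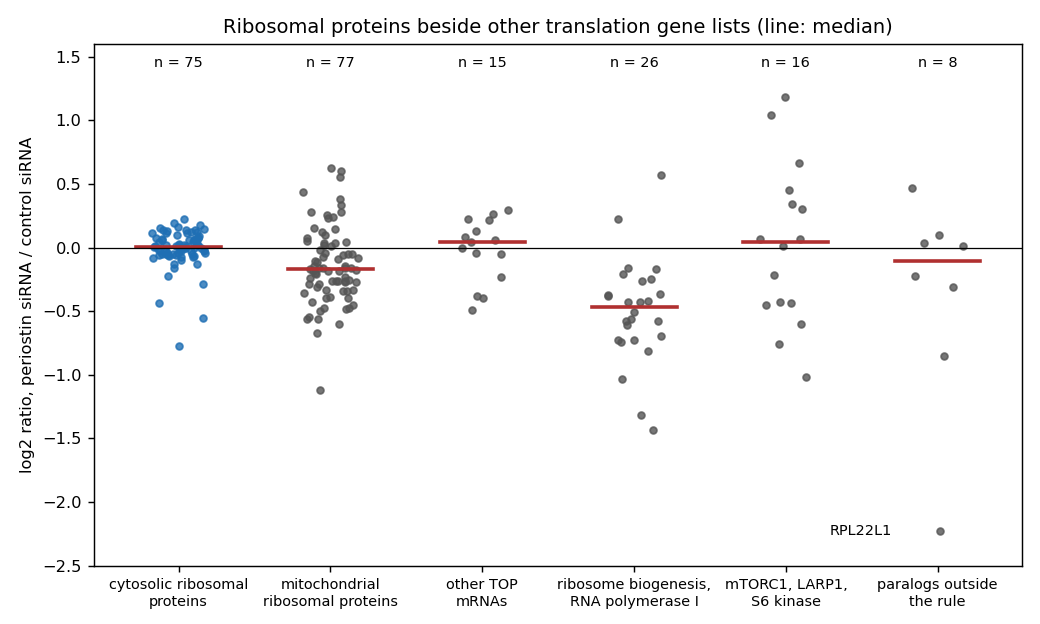
Log2 ratio (y axis) of the members, 4 other lists of translation genes and 8 paralogs (x axis), 1 point per gene with the median as a red line. The 75 members lie in a narrow band at 0, the 26 biogenesis genes lie mostly below it, and RPL22L1 lies lowest of all at -2.23.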

How the data were processed

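MRC-5 cells with control siRNA or periostin siRNA were measured on 1 array per condition. The authors deposited Feature Extraction intensity values of each array, background-subtracted and detrended by that program but not scaled between arrays, and a table of normalized intensity values, which for probes printed once is the scanner value multiplied by a constant of its array. The file headers name Feature Extraction 11.5.1.1 and the submitters' processing notes 12.0.3.1.

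The log2 of gProcessedSignal was centred on each array's 75th percentile over 58717 non-control spots (372 and 383). Printed signals were brought to a common 75th percentile of 377. Log2 values of repeated spots were averaged, and the brightest probe stood for a gene, with 65.1% of spots named through RefSeq of GRCh38.p14. A log2 ratio is periostin siRNA over control siRNA. Errors are propagated for 1 spot or are the SD over 10 spots. Brightness differs between probes for technical reasons, so levels were compared only within a probe.

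The members and lists were chosen with earlier results of these data known. Named with values are the 8 highest and 8 lowest members, members past 1.5-fold, members whose probes differed in sign or by more than 0.5, and the structural groups. Genes named from the other lists were chosen after their values were seen. Python 3.11.15 with numpy 2.4.6, pandas 2.3.3, statsmodels 0.14.6 and matplotlib 3.10.9 and R 4.3.3 with limma 3.58.1 were used, and the scripts were tested on simulated data. The alternatives were the background correction, the scaling, the deposited table, the mean over probes, outlier flags and the median over spots. A few genes are not reported here by name.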

Additional observations from a re-analysis of the deposited data

How the results depend on the processing

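The SD of the members stayed between 0.09 and 0.18 under 12 alternatives, and RPL27A, RPL5, RPL26, RPL14 and RPL10A were below 0 under all 10 that apply to single genes. Scaling on the median, no scaling, scaling on spots well above background and the deposited table only shift all ratios alike. They left the SD and the differences between medians unchanged, so they do not test these. Of 160 values for 16 named members under 10 alternatives, 139 moved by less than 0.12, the pooled SD between spots of a probe, and 21 by more, 16 of them with scaling on the median. Scaling on the median shifted all genes by -0.13, put the member median at -0.12 and left 10 members above 0 in place of 40. The count of members past 1.5-fold was 1, and it was 0 with the normexp background correction (offset 50) and 2 with scaling on the median, with loess (span 0.3) and with all probes of a gene averaged, and in these 3 RPL5 joined RPL27A. It was 0 at 2-fold and 0 at 3-fold. Leaving out RPL27A, RPL5 and RPL26, chosen after seeing the data, took the SD to 0.09. No paired analysis was possible because there is 1 array per condition, and none could be left out. Naming by the gene symbol of the scanner file was not run, since no such column was used here. Precision is limited by the number of arrays, and dim probes such as that of RPL27A depend most on the background.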

Other observations

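Probes named for pseudogenes of ribosomal protein genes were also on the array, including those of RPSA, which was not analysed itself. Of 21 such pseudogenes, each read by its brightest probe, 18 were well above background on both arrays. Their log2 ratios had a median of 0.02 and an SD of 0.19, with 13 above 0 and 5 below. RPL19P12, at 60926 with control siRNA and 61663 with periostin siRNA, had a log2 ratio of 0.02, RPL13P5, at 2061 and 1543, one of -0.42, and RPL23AP64, at 138 and 169, one of 0.29. RPS15AP10 was well above background with periostin siRNA alone and RPL31P11 with control siRNA alone.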
